A study of Mus musculus with 20 samples.

Results

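The 10 genes followed here take part in the uptake of fatty acids and lipoproteins from blood into adipose tissue, namely Lpl, Gpihbp1, Angptl4, Cd36, Fabp4, Slc27a1, Acsl1, Vldlr, Lrp1 and Cav1. They were chosen by name, and all 10 were found among the 14776 genes of the deposited expression table after Ensembl identifiers were matched to gene symbols. Messenger RNA of epididymal white adipose tissue, abbreviated eWAT, was sequenced in 20 male C57BL/6J mice, each mouse giving 1 library. The 6 NC mice ate maintenance feed. The 7 HFD mice were given feed with 60 kcal% fat from 6 weeks of age and received saline into the stomach for the last 6 of 20 weeks. The 7 SZ-A mice ate the same fat-rich diet and received SZ-A, the alkaloids of mulberry twig (Ramulus Mori), at 400 mg/kg each day over those 6 weeks, after 14 weeks of diet alone. All mice were fasted overnight before the tissue was taken. The labels give 6 NC mice whereas the study's methods describe groups of equal size. No saline gavage of the NC mice is described.

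Triglyceride travels in blood inside lipoproteins and is too large to cross the vessel wall. Lipoprotein lipase, encoded by Lpl, is made by adipocytes and is carried by GPIHBP1, a protein of capillary endothelial cells, to the vessel lumen, where it releases fatty acids, and ANGPTL4 inactivates it, most of all during fasting. CD36 and the transporter FATP1 (Slc27a1) aid the entry of fatty acids, caveolin-1 (Cav1) forms the caveolae in which CD36 can reside, FABP4 binds fatty acids in the cytosol, and ACSL1 joins them to coenzyme A. VLDLR and LRP1 are endocytic receptors of the LDL receptor family that take up remnant lipoproteins and many other ligands. CD36, LPL, FABP4 and LRP1 are also made by macrophages, and CD36, FABP4 and caveolin-1 by capillary endothelium, so a level in whole tissue sums several cell types. In such bulk tissue, fewer cells of a type and less RNA per cell cannot be told apart.

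Levels are given as FPKM, fragments divided by gene length and by a library size. The length is that of all annotated exons of a gene merged, such as 4489 bases for Fabp4 and 3590 for Cd36. For Fabp4 these bases cover the whole annotated gene, so an order of levels between genes depends on the annotation. The reads behind these values were recovered for the deposited genes and came to between 13567667 and 19388628 per mouse. In some mice the library size implied by FPKM was below these reads, as in HFD mouse 1 (15406900 against 17216011). The divisor was thus not the plain total of the recovered reads, and the reason was not tested. The fewest reads of a member were 121, for Gpihbp1 in NC mouse 6, so counting error was small beside the differences between mice.

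Several libraries stood apart from their groups. NC mouse 6 had 26.6 FPKM of Adipoq, which encodes adiponectin and marks adipocytes, against at least 859 in each other NC mouse, and its 12 adipocyte markers summed to 479 FPKM against 8134 to 20771. Its 12 endothelial markers summed to 22.8 FPKM against at least 245, while Adgrg2, a gene of epididymal epithelium, reached 420.4 FPKM against at most 30.0. In this mouse the defining markers of the labelled tissue were thus low, and each member's change against NC, where one is given, is given with and without it. NC mouse 1 had 8.34% mitochondrial reads against at most 4.80% in the other NC mice and 454 FPKM of Krt18, a keratin of epithelium and mesothelium, beside 452 in NC mouse 6, and it was among the lowest 2 NC mice for all 10 members. In HFD, mice 1 and 5 had the lowest adipocyte sums (1019 and 2011 FPKM) and mouse 1 the highest macrophage sum (9249.6 FPKM). In SZ-A, mouse 2 had Adgrg2 at 103 FPKM and the lowest endothelial sum (236 FPKM), and mouse 5 had 11.6% mitochondrial reads against at most 5.11% in the other SZ-A mice. SZ-A mouse 7 had the most Krt18 of its group (168 FPKM) and was among the lowest 2 SZ-A mice for 9 members. Of the 20 epididymal genes listed only 3 were in the table, and of the 8 mesothelial genes only 3, so RNA of neighbouring tissue could be followed through few genes. Of those 3 epididymal genes, 2 did not overlap between HFD and either other group, where 20.5% (NC) and 6.08% (SZ-A) of all genes did not. Adgrg2 was at most 1.75 FPKM in HFD, at least 5.69 in NC and at least 1.80 in SZ-A. Spint2 was at most 4.53, at least 5.10 and at least 4.64. The part of such RNA in the comparisons with HFD was not tested.

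**Figure D1:**
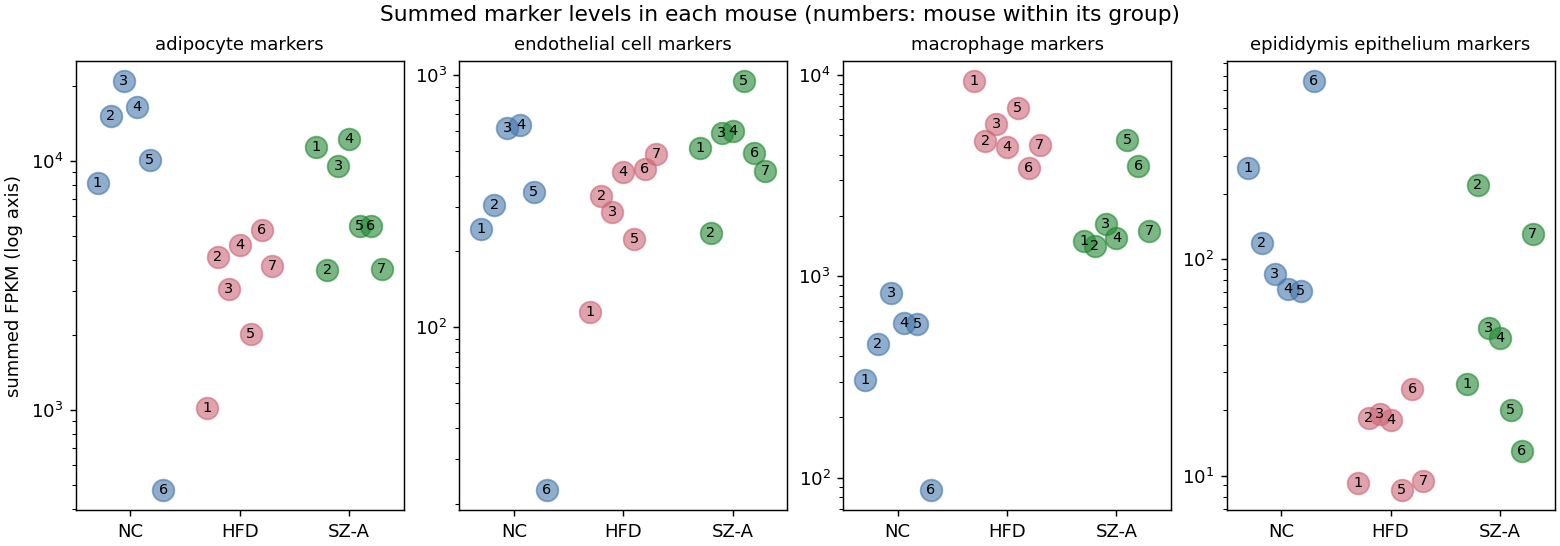
Summed FPKM (log axis) of markers of adipocytes, endothelial cells, macrophages and epididymal epithelium in each mouse, which is numbered within its group. NC mouse 6 lies lowest among NC mice for the first 3 lists and highest for the fourth (659 FPKM), and every HFD mouse lies above every NC mouse for macrophage markers.

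The members spanned a wide range of levels, and the order between genes rests in part on the lengths used. In NC mice the median fell from 2085 FPKM for Fabp4 through 1079 for Cd36, 608 for Lpl, 347 for Cav1, 170.2 for Angptl4, 149 for Slc27a1, 113 for Acsl1, 67.1 for Gpihbp1 and 22.9 for Lrp1 to 8.13 for Vldlr. Each neighbour pair in this order kept its order within at least 4 of the 6 mice, the loosest being Angptl4 above Slc27a1. In HFD mice the order was led by Cd36 (1842 FPKM), which exceeded Fabp4 (1347 FPKM) in 7 of 7 mice with no overlap between the 2 ranges. Lrp1 stood sixth in HFD mice, above Slc27a1, Acsl1 and Gpihbp1, whereas it stood ninth in NC. In SZ-A mice Fabp4 again led (1844 FPKM), above Cd36 (1537 FPKM) in 6 of 7 mice, and Lrp1 stood ninth. There Gpihbp1 lay above Acsl1 in only 4 of 7 mice, and these levels did not differ beyond their spread.

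**Figure D2:**
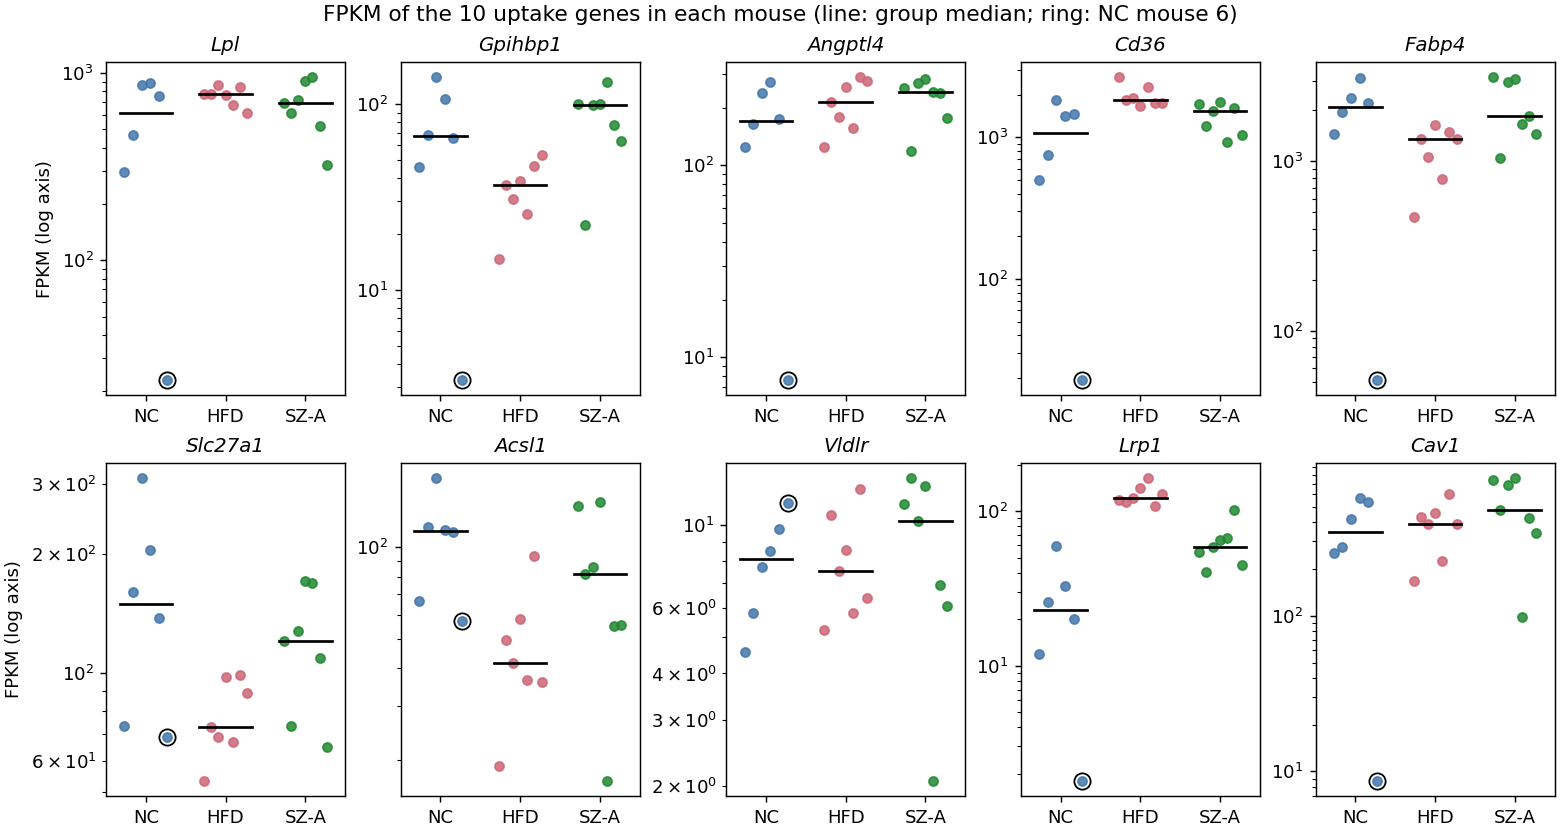
FPKM (log axis, scaled per gene) of each member in each of the 6 NC, 7 HFD and 7 SZ-A mice, with the group median as a line and NC mouse 6 ringed. Lrp1 is the member whose HFD mice lie wholly above both other groups, and NC mouse 6 is the lowest NC mouse for 9 of the 10 members.

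HFD was compared with NC to see what the diet changed, and 3 of the 10 members had an adjusted p under 0.05 from limma, the fit used across all genes throughout, where 41.1% of the 14706 genes tested did. Lrp1 was higher in HFD mice (1 of 10, against 21% of all genes) and Slc27a1 and Acsl1 were lower (2 of 10, against 20.1%). Only Lrp1 also passed the study's stricter limit of a log2 fold change above 1.5, as 7.97% of all genes did. That limit is on the log2 scale in the study's methods but a plain fold change elsewhere in its text. Read as a plain fold change, 3 of 10 members passed it, against 27.8% of all genes. Without NC mouse 6, the calls were 6 of 10, with Cd36 added as higher and Gpihbp1 and Fabp4 as lower, where 45.2% of all genes were called, and without NC mouse 1 as well they were 5 of 10 (45.5% of all genes), Cd36 no longer among them. The share of members called was near that of all genes in these fits. The members' median log2 fold change was 0.38, and -0.010 without NC mouse 6, against -0.041 over all genes. Calls are therefore given below per gene, in the order of the route from vessel to cell.

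SZ-A was compared with HFD to see what the treatment changed on the same diet, and 2 of the 10 members were called, where 22.8% of the 14695 genes tested were. Lrp1 was lower (1 of 10, against 13.3% of all genes) and Gpihbp1 higher (1 of 10, against 9.47%) in SZ-A mice, and neither passed the limit of 1.5, which 0.864% of all genes did, on the log2 scale. Both passed it as a plain fold change, as 12.5% of all genes did. At an unadjusted p under 0.05 there were 5 members, adding Cd36, Fabp4 and Slc27a1, where 37.7% of all genes were, and voom on the recovered reads called 2, where it called 23.2% of all genes. Without SZ-A mice 2 and 5 the calls were 4 of 10 (33% of all genes), with Fabp4 and Acsl1 added as higher, and without HFD mice 1 and 5 only Lrp1 was called (9.62% of all genes). The 2 comparisons share the HFD mice, so a high or low HFD group moves both, and their values are given side by side without a test of one against the other. In SZ-A against NC, 0 of the 10 members were called, where 4.61% of 14718 genes were. There limma gave 1 member, Lrp1, an unadjusted p under 0.05, as it did 19% of all genes, voom called 0 (4.15% of all genes), and without NC mouse 6 the count was also 0 (5.5% of all genes).

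**Figure D3:**
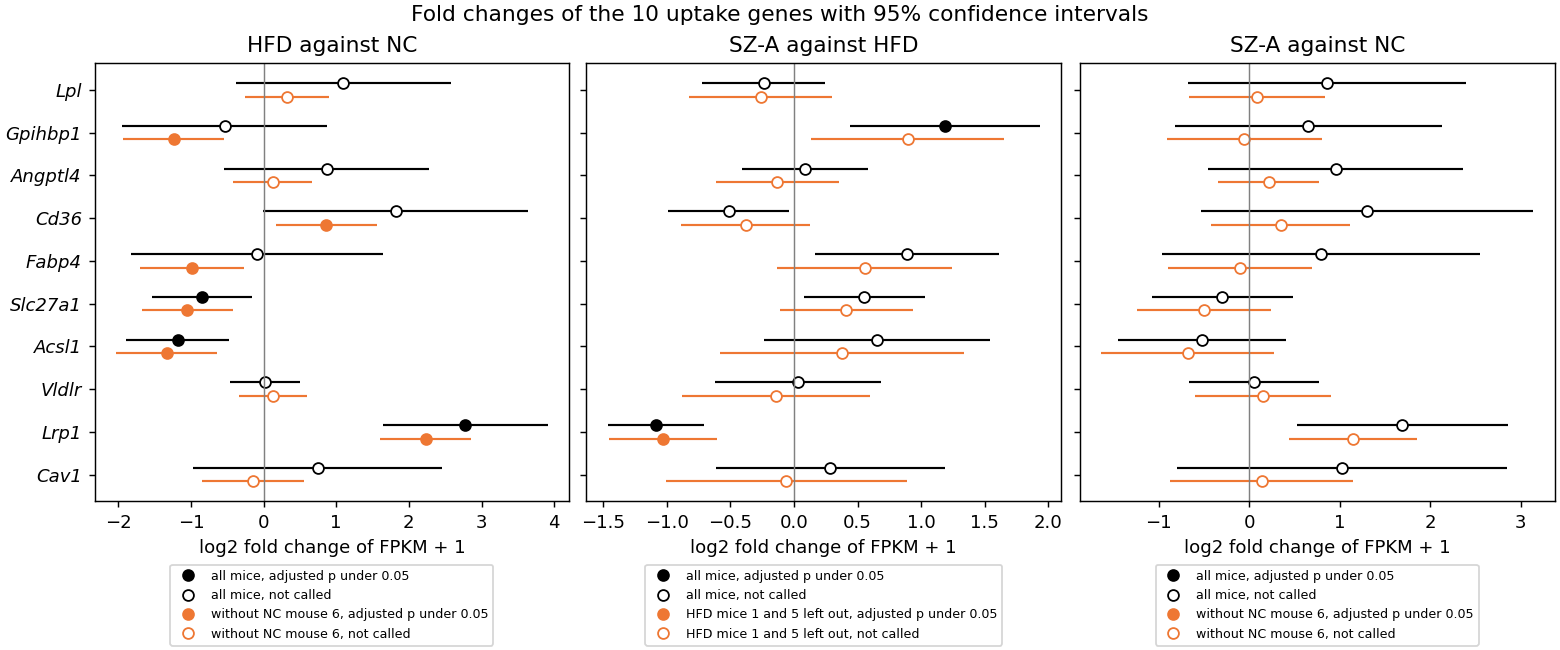
Log2 fold change of FPKM + 1 of each member (points) with its 95% confidence interval from limma (bars) in the 3 comparisons, with all mice (black) and with the libraries named in each legend left out (orange). Filled points have an adjusted p under 0.05, and leaving out NC mouse 6 narrows the interval of each member in HFD against NC, most for Cd36, Fabp4 and Cav1.

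Among the genes of lipolysis in the vessel, Lpl (ENSMUSG00000015568, chr8:68880491-68907448, plus strand, GRCm38) ranged from 23.0 FPKM through a median of 608 to 887 in NC, from 614 through 773 to 866 in HFD, and from 321 through 691 to 949 in SZ-A. HFD mice lay within the NC range, and SZ-A mice spread to both sides of HFD. Its log2 fold change was 1.10 in HFD against NC (SE 0.69, adjusted p = 0.22 from limma), 0.32 without NC mouse 6, and -0.24 in SZ-A against HFD (95% confidence interval -0.72 to 0.24), within the spread between mice.

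Gpihbp1 (ENSMUSG00000022579, chr15:75596628-75599481, plus strand) ranged from 3.25 FPKM through 67.1 to 139.8 in NC, from 14.6 through 36.7 to 53.0 in HFD, and from 22.4 through 99.2 to 132 in SZ-A. All SZ-A mice but mouse 2 were above every HFD mouse, and 4 NC mice were above every HFD mouse. SZ-A mice differed from HFD mice by 1.19 on the log2 scale (SE 0.35, adjusted p = 0.0249 from limma). An exact permutation test of the 7 SZ-A against 7 HFD mice, two-sided, gave p = 0.0122. The call was lost with any of HFD mice 1 and 5 and SZ-A mice 1 and 3 left out (adjusted p from limma up to 0.0540), and with HFD mice 1 and 5 out together the change was 0.89 (adjusted p = 0.124 from limma). It was also lost with all 3 groups in the fit (adjusted p = 0.171 from limma). Against NC, HFD mice gave -0.53 (adjusted p = 0.539 from limma), and -1.24 without NC mouse 6 (SE 0.32, adjusted p = 0.00667 from limma). Of the 12 endothelial markers, 11 had a log2 change above 0 in SZ-A against HFD and 2 were called, Egfl7 and Esam, 16.7% against 22.8% of all genes. Their median was 0.33. Without HFD mice 1 and 5, 8 were above 0, 0 were called and the median was 0.051. The sum of the 12 ranged from 115 to 487 FPKM in HFD and from 236 to 944 in SZ-A mice, lowest in HFD mouse 1, which also had the lowest Gpihbp1 of its group. In SZ-A mouse 5, which had the highest sum, Cldn5 alone gave 656 FPKM, while its Pecam1 (30.2) and Cdh5 (33.6) were the lowest of its group. The part of these markers in the result was not tested.

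Angptl4 (ENSMUSG00000002289, chr17:33773750-33781830, minus strand) ranged from 7.60 FPKM through 170.2 to 272 in NC, from 124 through 214 to 288 in HFD, and from 119 through 241 to 284 in SZ-A. The 3 groups overlapped throughout, apart from the low NC mouse 6. Its log2 fold changes were 0.87 in HFD against NC (0.13 without that mouse) and 0.089 in SZ-A against HFD (95% confidence interval -0.40 to 0.58), with adjusted p of 0.310 and 0.804 from limma.

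Among the genes of entry into the cell, Cd36 (ENSMUSG00000002944, chr5:17781690-17888801, minus strand) ranged from 19.3 FPKM through 1079 to 1823 in NC, from 1664 through 1842 to 2658 in HFD, and from 932 through 1537 to 1766 in SZ-A. All NC mice but mouse 3 were below every HFD mouse, and 5 of 7 SZ-A mice were below every HFD mouse. In HFD against NC the log2 fold change was 1.82 (SE 0.85, adjusted p = 0.101 from limma), while the exact permutation test, two-sided, gave p = 0.00233. With all mice kept, it was called with all 3 groups in the fit (adjusted p = 0.048 from limma) and with array quality weights (adjusted p = 0.043 from limma). Of 12 alternative settings 10 left it uncalled. Without NC mouse 6 the change was 0.86 (adjusted p = 0.0416 from limma), and with NC mouse 1 out as well 0.59 (adjusted p = 0.0907 from limma). SZ-A against HFD gave -0.51 (SE 0.22, adjusted p = 0.108 from limma), with p = 0.00466 in the exact permutation test, two-sided. There 12 of 13 alternative settings left it uncalled, and quantile normalization called it (adjusted p = 0.0393 from limma). The highest Cd36 was in HFD mouse 1, the mouse with the most macrophage marker RNA and the least adipocyte marker RNA of its group. In SZ-A the mouse with the highest macrophage sum, mouse 5 (4719 FPKM), had the lowest Cd36 (932 FPKM). The part of these cell types in the level of Cd36 was not tested.

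Slc27a1 (ENSMUSG00000031808, chr8:71568882-71587302, plus strand) ranged from 68.8 FPKM through 149 to 311 in NC, from 53.4 through 72.8 to 99.1 in HFD, and from 65.2 through 120.4 to 171 in SZ-A. NC mice 1 and 6 lay inside the HFD range and the other 4 above it, and 5 of 7 SZ-A mice were above every HFD mouse. It fell in HFD against NC by 0.85 on the log2 scale (SE 0.32, adjusted p = 0.0478 from limma). That call was lost in 11 of 13 fits with 1 mouse left out, at adjusted p of up to 0.0979 from limma, and held without NC mouse 6, at -1.05 (adjusted p = 0.010 from limma). SZ-A against HFD gave a change of 0.55 (SE 0.22, adjusted p = 0.0869 from limma).

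Cav1 (ENSMUSG00000007655, chr6:17306335-17341452, plus strand) ranged from 8.71 FPKM through 347 to 573 in NC, from 166 through 388 to 599.7 in HFD, and from 98.1 through 479 to 767 in SZ-A. The groups overlapped, and SZ-A mouse 5 and HFD mouse 1 were the lowest of theirs. SZ-A against HFD gave a log2 fold change of 0.28 (95% confidence interval -0.62 to 1.19). HFD against NC gave 0.74, or -0.15 without NC mouse 6, so that its sign rested on that mouse.

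Among the genes that hold fatty acids in the cell, Fabp4 (ENSMUSG00000062515, chr3:10204088-10208576, minus strand) ranged from 50.9 FPKM through 2085 to 3126 in NC, from 468 through 1347 to 1645 in HFD, and from 1052 through 1844 to 3139.8 in SZ-A. Of the SZ-A mice 5 were above every HFD mouse, and of the NC mice 4 were. HFD against NC gave a log2 fold change of -0.095 (adjusted p = 0.935 from limma) and -0.99 without NC mouse 6 (SE 0.33, adjusted p = 0.0270 from limma). In SZ-A against HFD it was 0.89 (SE 0.34, adjusted p = 0.0710 from limma), with p = 0.0221 in the exact permutation test, two-sided. Without SZ-A mice 2 and 5 it was 1.13 (adjusted p = 0.0227 from limma).

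Acsl1 (ENSMUSG00000018796, chr8:46471037-46536051, plus strand) ranged from 57.3 FPKM through 113 to 169 in NC, from 19.1 through 41.5 to 93.4 in HFD, and from 17.1 through 81.6 to 141 in SZ-A. Of the HFD mice 5 were below every NC mouse, and the SZ-A mice spread over the ranges of both other groups, with mouse 5 lowest. It fell in HFD against NC by 1.18 on the log2 scale (SE 0.33, adjusted p = 0.0116 from limma; exact permutation test, two-sided, p = 0.00816), and the call held in 13 of 13 fits with 1 mouse left out, at -1.34 without NC mouse 6. In SZ-A against HFD the change was 0.66 (SE 0.42, adjusted p = 0.263 from limma), and 1.0 without SZ-A mice 2 and 5 (adjusted p = 0.0441 from limma). Adipocyte markers moved in part with these genes. All 12 had a change above 0 in SZ-A against HFD on the log2 scale, with a median of 0.94 and 3 called (Cfd, Retn and Adrb3). In HFD against NC their median was -0.28, with the same 3 lower, 1 higher (Lep, 2.85) and 8 not called. Without NC mouse 6 the median was -1.03 with 7 lower and 1 higher. Their sum ranged from 1019 to 5254 FPKM in HFD and from 3636 to 12160.1 in SZ-A mice, and their part in the values of Fabp4, Acsl1 and Slc27a1 was not tested.

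Of the receptors, Lrp1 (ENSMUSG00000040249, chr10:127538161-127621148, minus strand) ranged from 1.80 FPKM through 22.9 to 59.6 in NC, from 108 through 121 to 164 in HFD, and from 40.2 through 58.7 to 102 in SZ-A. Every HFD mouse was above every NC and every SZ-A mouse, and 3 SZ-A mice were above every NC mouse. Values did not overlap between HFD and NC for 20.5% of all genes, and between SZ-A and HFD for 6.08%. The NC mean was 25.3 ± 19.9 FPKM (SD, n = 6), the HFD mean 128 ± 19.1 (SD, n = 7) and the SZ-A mean 61.7 ± 20.1 (SD, n = 7). HFD mice exceeded NC mice by 2.78 on the log2 scale (SE 0.53, adjusted p = 0.000966 from limma) and 2.23 without NC mouse 6 (SE 0.29). SZ-A mice differed from HFD mice by -1.08 (SE 0.18, adjusted p = 0.00116 from limma), -1.01 without SZ-A mice 2 and 5 and -1.03 without HFD mice 1 and 5. Exact permutation tests, two-sided, gave p = 0.000583 in both comparisons, the smallest these groups allow. The call in SZ-A against HFD held in 14 of 14 fits with 1 mouse left out and was lost with all 3 groups in the fit (adjusted p = 0.103 from limma). In SZ-A against NC the change was 1.69 (SE 0.54, adjusted p = 0.0984 from limma), and 1.15 without NC mouse 6 (adjusted p = 0.0631 from limma). There Lrp1 was called with all 3 groups in the fit (adjusted p = 0.0217 from limma) and with array quality weights (adjusted p = 0.013 from limma). Of 12 alternative settings 10 left it uncalled. Macrophage markers moved the same way. All 12 rose in HFD against NC (median log2 fold change 3.26, or 2.92 with 11 called without NC mouse 6), 11 of 12 fell in SZ-A against HFD (median -1.41), and the ranges of their sum were 87.3 to 824 FPKM (NC), 3450.3 to 9249.6 (HFD) and 1413 to 4719 (SZ-A). Of 9 fibroblast and progenitor markers, 6 were higher and 1, Dpp4, lower in HFD against NC, and 7 were lower and 0 higher in SZ-A against HFD. The part of these cell types in the level of Lrp1 was not tested.

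Vldlr (ENSMUSG00000024924, chr19:27216484-27254231, plus strand) ranged from 4.58 FPKM through 8.13 to 11.5 in NC, from 5.23 through 7.56 to 12.5 in HFD, and from 2.06 through 10.3 to 13.4 in SZ-A. The 3 groups overlapped, and here NC mouse 6 was the highest of its group. Its log2 fold change was 0.020 in HFD against NC (95% confidence interval -0.46 to 0.50), 0.13 without NC mouse 6, and 0.032 in SZ-A against HFD (-0.62 to 0.68), within the spread between mice.

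Lrp1 and Cd36 had their highest median in HFD mice and a lower one in SZ-A mice, and the bases before their start sites are shown for that reason. With all mice, Cd36 was not called in the fit used throughout. RefSeq promoters of GRCm38.p6 were found for 6 members, 11 start sites in all, and not for Lpl, Gpihbp1, Angptl4 and Fabp4, of which Lpl had the same order of medians. The 250 bases before each start were searched on both strands for 5 motifs. GGGCGG, the GC box that Sp1 binds, and AGGTCA, the half-site of nuclear receptors, are in capitals below, in either orientation, each sequence being written 5′ to 3′ on the strand of its gene.
Lrp1, chr10:127621149-127621398, minus strand: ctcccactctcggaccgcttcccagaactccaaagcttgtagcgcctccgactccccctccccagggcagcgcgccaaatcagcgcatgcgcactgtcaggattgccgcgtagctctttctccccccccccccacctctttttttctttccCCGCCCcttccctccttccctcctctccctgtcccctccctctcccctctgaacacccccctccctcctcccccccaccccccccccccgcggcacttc
Cd36, chr5:17835897-17836146, minus strand: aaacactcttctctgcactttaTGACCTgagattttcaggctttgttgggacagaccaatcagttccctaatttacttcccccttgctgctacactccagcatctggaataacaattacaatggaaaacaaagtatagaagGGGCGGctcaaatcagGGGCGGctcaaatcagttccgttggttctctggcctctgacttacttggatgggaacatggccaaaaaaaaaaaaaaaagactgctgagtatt
The Lrp1 window lies just before the annotated gene and the Cd36 window inside the annotated gene, where longer transcripts start farther upstream, and neither overlaps an annotated exon. The Lrp1 window held 1 GC box, and its GC content was 67.2%. The Cd36 window held 2 GC boxes and 1 half-site, and its GC content was 43.2%. The GC box was in 7 of the 11 windows, at least 1 for each of the 6 genes, and in 32.7% of the 32851 mouse promoters of the same length. The half-site was in 1 of the 11 windows, that of Cd36, and in 14.0% of all promoters. A repeat of 2 such half-sites with 1 base between them, which PPAR and RXR bind as a pair and which contains the half-site motif, was in 0 of the 11 and in 0.0335% of all. CCAAT was in 5 windows of 4 genes (33.8% of all promoters), and TATAAA in 1, of Cav1 (12.4%).

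Other genes of these routes were followed in 5 lists of 83 genes, of which 64 were tested. In HFD against NC, 17 of the 64 were higher and 13 lower, 46.9% called, and without NC mouse 6 the counts were 18 and 13. In SZ-A against HFD, 7 were higher and 7 lower, 21.9% called, and in SZ-A against NC 6 were higher and 0 lower, 9.38% called, or 9 and 0 without NC mouse 6. These shares lay near those of all genes in the first 2 comparisons. In SZ-A against NC 4.61% of all genes were called, 611 higher and 67 lower, or 682 and 128 without NC mouse 6. The calls there thus leaned to higher over all genes as well. Each list gene named for HFD against NC kept its direction and its call without NC mouse 6. In SZ-A against HFD without HFD mice 1 and 5, 1 list gene was higher and 4 lower, 7.81% called against 9.62% of all genes. Of the genes named for that comparison, Apoc3, Sel1l, Dbi, Zdhhc4, Pacsin2, Tcf15 and Flt1 then kept their direction but lost their call (adjusted p up to 0.187 from limma). Apoc3 also lost it without SZ-A mice 2 and 5 (adjusted p = 0.0839 from limma).

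**Figure D4:**
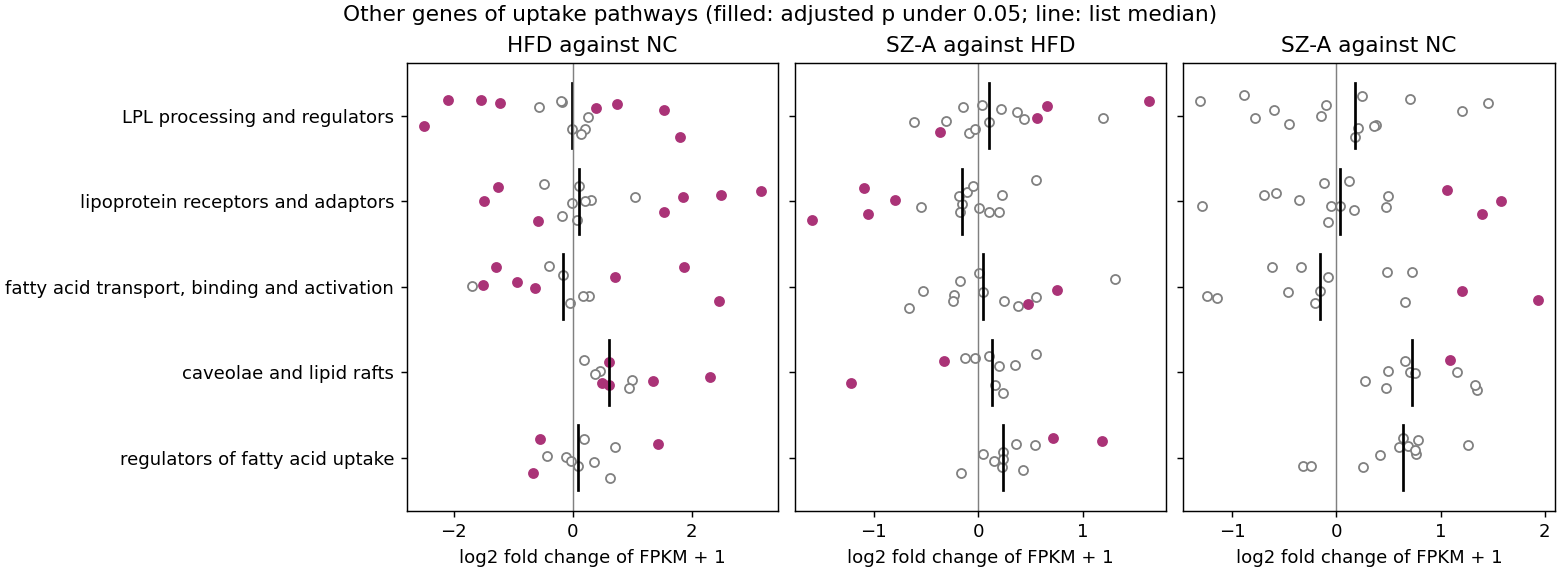
Log2 fold change of FPKM + 1 of the 64 other uptake genes tested, by list, in the 3 comparisons, with genes of an adjusted p under 0.05 from limma filled and the list median as a line. The 10 genes of caveolae and lipid rafts all lie above 0 in HFD against NC, with a median of 0.61, which is 0.33 with 8 of 10 above 0 once NC mouse 6 is left out.

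Among 15 genes that process or regulate LPL, 4 rose and 4 fell in HFD against NC. The largest falls were those of Lipg (-2.51), which encodes endothelial lipase, Apoc1 (-2.10) and Apoc3 (-1.55), apolipoproteins that restrain the clearance of triglyceride-rich particles. The largest rises were those of the heparan sulfate proteoglycans Sdc1 (1.81) and Hspg2 (1.54) and of Sel1l (0.74), which helps LPL leave the endoplasmic reticulum. Without NC mouse 6, Sdc1 gave 2.43 and Hspg2 0.95. In SZ-A against HFD, Apoc1 (1.64) and Apoc3 (0.66) rose and Sel1l fell by 0.36. Mean Apoc1 was 67.1 ± 20.2 FPKM in the 6 NC mice, 15.8 ± 7.52 in the 7 HFD mice and 57.3 ± 49.0 in the 7 SZ-A mice (SD each), without overlap between HFD and either other group.

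Among 15 lipoprotein receptors and adaptors, 4 rose and 3 fell in HFD against NC. Those that rose included Msr1 (3.17), a scavenger receptor of macrophages, and Lrp12 (2.49). Lsr (-1.49), Sort1 (-1.25) and Lrp5 (-0.58) fell. Of these 15 genes 4 fell and 0 rose in SZ-A against HFD, with Msr1 (-1.59), Lrp12 (-1.09) and Dab2 (-1.05) leading, beside Lrp1 itself, which is a member and not in this list. The median log2 fold change of the list was -0.15 there, against 0.031 over all genes.

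Among 13 genes of fatty acid transport, binding and activation, 3 rose and 4 fell in HFD against NC. Fabp5 (2.46), the fatty acid binding protein that macrophages also make, Fabp7 (1.87) and Acsl5 (0.72) rose, and Acsbg1 (-1.51), Acsl4 (-1.29) and Zdhhc4 (-0.94), which encodes an acyltransferase for CD36, fell. In SZ-A against HFD, Dbi (0.76), the acyl-CoA binding protein, and Zdhhc4 (0.48) rose. Mean Fabp5 was 19.2 ± 11.3 FPKM in the 6 NC mice and 95.5 ± 16.7 in the 7 HFD mice (SD each), without overlap.

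Of 10 genes of caveolae and lipid rafts, 5 rose in HFD against NC, with Ehd4 (2.31), Cavin3 (1.35) and Flot2 (0.62) the largest, and 2 fell in SZ-A against HFD, Ehd4 (-1.22) and Pacsin2 (-0.33). Of 11 regulators of fatty acid uptake, Nrp1 (1.43), a receptor through which VEGF-B acts on endothelium, rose in HFD against NC, and Ppara (-0.67) and Ppard (-0.55) fell. Tcf15 (1.18) and Flt1 (0.72) rose in SZ-A against HFD. Tcf15 encodes a factor that acts with MEOX2 on Cd36 and Lpl in capillary endothelium, and Flt1 the receptor of VEGF-B.

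The genes most like each member over the 20 mice, by Pearson r of log2(FPKM + 1) among 12445 other genes averaging 1 FPKM or more, were described without a test, since these mice share groups, libraries and cell makeup. Lrp1 followed Itpripl2, Stard8 and Pfkp (r = 0.994, 0.990 and 0.987), which stayed at 0.985, 0.977 and 0.968 after each group was centred with NC mouse 6 kept. Without that mouse and without centring they were 0.989, 0.982 and 0.974. Centring without that mouse was not done. Gpihbp1 followed Hspa12b, Lims2 and Sult1a1 (0.983, 0.975 and 0.974), and Fabp4 followed Rgcc, Adipoq and Cidec (0.988, 0.986 and 0.980). Cav1 followed Fzd4, Tmem182 and Plbd1 (0.987, 0.979 and 0.979), Acsl1 followed Nudt12, Lonp2 and Apmap (0.953, 0.951 and 0.947), Slc27a1 followed Dgat1, Acacb and Cluh (0.921, 0.921 and 0.918), and Vldlr followed Cdc42bpa, Sesn3 and Ptprg (0.926, 0.916 and 0.914). Without NC mouse 6 the likeness fell most for Lpl, Angptl4, Cd36 and Cav1, and less for Gpihbp1, Fabp4 and Lrp1. Lpl had r = 0.962 with Zcchc24 and 0.762 without that mouse, and Angptl4 had 0.975 with Acp5 and 0.824 without it. Cd36 had 0.980 with Mpp1 and 0.936 without it, and Cav1 had 0.979 with Plbd1 and 0.921 without it. The other leading genes were Fli1 and Celf2 for Lpl, Cavin1 and Fam43a for Angptl4, and Zcchc24 and Pkd2 for Cd36 (0.831 and 0.852 without that mouse).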

How the data were processed

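RNA of eWAT from 6 NC, 7 HFD and 7 SZ-A mice, grouped by the labels, was sequenced as paired-end reads. The authors aligned them to GRCm38 with HISAT2, counted them with featureCounts 1.5.0-p3 per the submitters' processing notes, and deposited FPKM for 14776 genes, each above 0 in every mouse. The filter and the annotation release are not given in the sources used here. Of these genes 14770 were matched to GENCODE M21. FPKM times exon length gave whole reads within 0.01 for 95.9% to 96.3% of values under 1000 reads. A share of 0.95 was required of the step, so this is partly built in.

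Groups were compared pairwise in R 4.3.3 by limma 3.58.1, using log2(FPKM + 1), which understates changes of low genes. Genes averaging at least 0.1 FPKM entered, with a variance trend and Benjamini-Hochberg adjustment over all genes. A gene was called at an adjusted p under 0.05. Exact permutation tests of members were two-sided. In simulated data for HFD against NC (14706 genes), SZ-A against HFD (14695) and SZ-A against NC (14718), the steps called 129, 154 and 96 of 200 genes changed by 1 on the log2 scale, with 8, 6 and 5 unchanged ones, and 177, 196 and 174 of 200 changed by 2, with 12, 13 and 14. Tables and plots used Python 3.11.15, pandas 2.3.3, NumPy 2.4.6 and matplotlib 3.10.9.

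The members, lists and tests were chosen with earlier results of these data known. Named list genes are up to 3 called rises and 3 called falls per list in HFD against NC and SZ-A against HFD, and for likeness the 3 genes of highest r per member. Some genes that this rule names are not reported here. Alternatives were other pseudocounts, filters and scalings, all 3 groups in the fit, array weights, robust variance, voom, the replicate block, the fold limit and leaving out mice. For voom the library sizes implied by FPKM were used. Leaving out mice in pairs, leaving out NC mouse 6 with SZ-A mice 2 and 5, and the plain fold limit were chosen after seeing the data. The labels give no batch, and each mouse is 1 library.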

Additional observations from a re-analysis of the deposited data

Results flagged for a closer look

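The highest and the lowest mouse of each group were examined for each member on log2(FPKM + 1) by Dixon's ratio, the gap to the nearest mouse over the range of the group. Of 30 groups, 8 had a mouse far from the others, where chance gives about 1 in 20. NC mouse 6 was the mouse in 6 of the 8. It was far below the other NC mice for Lpl (ratio 0.696, 23.0 FPKM), Gpihbp1 (0.685, 3.25 FPKM), Angptl4 (0.776, 7.60 FPKM), Cd36 (0.713, 19.3 FPKM), Fabp4 (0.811, 50.9 FPKM) and Cav1 (0.801, 8.71 FPKM). These genes share that library, so the 6 are not separate signs. SZ-A mouse 2 was far below its group for Gpihbp1 (0.584, 22.4 FPKM), and SZ-A mouse 5 for Cav1 (0.599, 98.1 FPKM).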

How the results depend on the processing

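Of 370 values of a member under alternatives other than leaving out 1 mouse, 341 kept direction and side of the threshold, 14 gained a call, 6 lost it and 9 turned, and of 400 values with 1 mouse left out these numbers were 350, 8, 15 and 27. The 9 turned values were Fabp4 0.024 and Vldlr -0.051 with quantile normalization and Angptl4 -0.021, Vldlr -0.0074 and Cav1 -0.30 without NC mice 1 and 6 (HFD against NC), Angptl4 -0.13, Vldlr -0.14 and Cav1 -0.059 without HFD mice 1 and 5 (SZ-A against HFD), and Lpl -0.017 without NC mouse 6 and SZ-A mice 2 and 5 (SZ-A against NC). For HFD against NC, members called were 5 with array quality weights, 5 without NC mice 1 and 6 and 1 with the fold limit. All genes called in these settings were 7286, 6686 and 1172. For SZ-A against HFD, members, list genes and all genes called were 0, 7 and 2089 with all 3 groups in the fit, 6, 32 and 6403 with array quality weights, and 1, 5 and 1414 without HFD mice 1 and 5. Members called were 4 without SZ-A mice 2 and 5 (all genes 4834) and 0 with the fold limit (all genes 127). For SZ-A against NC these counts were 1, 13 and 1527 with all 3 groups and 1, 22 and 2639 with array quality weights, and list genes were 11 without NC mouse 6 and SZ-A mice 2 and 5. The cause of these differences was not tested.

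With 1 mouse left out, members called ranged from 2 to 6 in HFD against NC, 1 to 4 in SZ-A against HFD and 0 to 1 in SZ-A against NC, list genes from 7 to 16 in SZ-A against HFD and 4 to 10 in SZ-A against NC, and all genes from 423 to 860 in SZ-A against NC. All genes called also moved in the other comparisons, from 5237 to 6645 in HFD against NC and from 2352 to 4296 in SZ-A against HFD. Members came to 6 without NC mouse 6, to 4 without SZ-A mouse 2 (Slc27a1 and Fabp4 added), to 3 without SZ-A mouse 5 (Acsl1) or 7 (Slc27a1), and, in SZ-A against NC, to 1 (Lrp1) without NC mouse 3. All genes called were 6645 without NC mouse 6, 4296 without SZ-A mouse 5 and, in SZ-A against NC, 860 without NC mouse 3. In SZ-A against HFD, 1735 genes were higher and 2136 lower without SZ-A mouse 2, and 1183 and 1693 without SZ-A mouse 7. List genes in SZ-A against HFD were 9 without HFD mouse 1, HFD mouse 3 or SZ-A mouse 3 and 7 without HFD mouse 5, and in SZ-A against NC 10 without SZ-A mouse 2. All genes called in SZ-A against NC were 441 without NC mouse 1, 423 without NC mouse 2 and 425 without SZ-A mouse 6. Log2 fold changes that turned ranged from -0.99 to 0.19 (Fabp4), -0.11 to 0.13 (Vldlr) and -0.15 to 1.03 (Cav1) in HFD against NC, from -0.031 to 0.23 (Angptl4) and -0.082 to 0.29 (Vldlr) in SZ-A against HFD, and from -0.054 to 0.96 (Gpihbp1), -0.10 to 1.08 (Fabp4) and -0.076 to 0.31 (Vldlr) in SZ-A against NC.

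The labels link mice of different groups by nothing but a replicate number. Same-numbered mice correlated above 0.1 in 1 of 6, 3 of 7 and 2 of 6 pairs (HFD against NC, SZ-A against HFD and SZ-A against NC). Replicate 4 was among them each time (r = 0.31, 0.39 and 0.59). So few pairs cannot decide whether the numbers carry a pairing. With the replicate block, SZ-A against HFD gave 1 member, 8 list genes and 2619 genes in all. Under the same block SZ-A against NC gave 1 list gene and 173 genes in all, and HFD against NC 2 members and 4423 genes in all. The members that lost their call under it were Gpihbp1 in SZ-A against HFD (adjusted p = 0.0558 from limma) and Slc27a1 in HFD against NC (adjusted p = 0.075 from limma).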
